A study of Mus musculus with 16 samples.

Results

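Solute carriers are membrane proteins that move amino acids, sugars, ions, metals, vitamins, lipids and metabolic intermediates across the plasma membrane and the membranes of organelles. Their genes carry the stem Slc and a family number, and most families share a kind of substrate. Some work as exchangers, some are driven by sodium or proton gradients, and some need a partner, as the light chains of family 7 need the heavy chain CD98. In dendritic cells they are known for feeding the changed metabolism of activated cells and for shaping the endolysosomal compartment in which antigen is processed.

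The solute carrier genes described here are the symbols beginning with Slc and a number in the deposited log2 table: 205 of its 11843 genes. They were read in RNA-seq libraries of type 1 conventional dendritic cells (cDC1s), sorted from the spleens of C57BL6 mice at steady state. There were 4 groups of 4 libraries: mature and immature cDC1s of Xbp1flIre1fl mice, and mature and immature cDC1s of Xbp1fl mice. Ire1 is a sensor of stress in the endoplasmic reticulum, and the factor XBP1 is made from the mRNA that it splices. Both lines carry loxP-flanked alleles that were not deleted and are labelled as wild type, so neither line is a knockout. The gates that parted mature from immature cells are not given in the sources used here, and the labels do not say that libraries came from separate mice. The p-values therefore measure the spread between these libraries, which may be technical. In bulk samples, fewer cells of a type and less RNA per cell cannot be told apart.

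Mature libraries held 13948232 to 16572576 counts and immature libraries 15083053 to 17000763 (n = 8 each), so that 3 counts corresponded to 0.176 to 0.215 CPM (counts divided by the library's total in units of 1e+06). A gene with no count could still lie below this floor, which covers counting error only. The cDC1 label held: the summed CPM of 10 identity markers, none at 0, was 6113 to 9331 in mature libraries and 10080 to 11324 in immature libraries, with 2 markers higher and 6 lower. All 10 maturation markers were higher, with sums of 13463 to 30717 CPM in mature and 627 to 1065 CPM in immature libraries. Markers of other cells moved with stage as well. All 10 B cell markers were higher, with sums of 312 to 1050 CPM in mature and 104 to 162 CPM in immature libraries, and 8 of 11 macrophage markers were higher, with sums of 569 to 1133 CPM in mature and 163 to 595 CPM in immature libraries. Of plasma cell markers 4 of 5 were higher, with sums of 103 to 620 CPM in mature libraries and 78.3 to 221 CPM in immature libraries. Of T cell markers 5 of 8 were higher (53.2 to 96.2 CPM in mature libraries, 32.1 to 52.7 CPM in immature libraries), and of markers of type 2 conventional dendritic cells 4 of 8 (324 to 469 CPM in mature libraries, 221 to 266 CPM in immature libraries). Of NK cell markers 2 of 7 were lower (65.9 to 114 CPM in mature libraries, 123 to 175 CPM in immature libraries) and 0 higher. Of plasmacytoid dendritic cell markers 1 was higher and 1 lower of 7, and of neutrophil markers 1 of 6 was lower. None of the markers of these lists was at 0 throughout, and their part in the results below was not tested. Of the mature libraries, Xbp1flIre1fl replicates 2 and 4 stood apart: the maturation receptor gene Ccr7 was at 6574 and 4988 CPM there, against 8001 to 13420 CPM in the other mature libraries.

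Levels are CPM scaled by the trimmed mean of M-values (TMM), and a call means that edgeR's quasi-likelihood test gave an adjusted p under 0.05. Of the 205 genes, 200 passed the filter on low counts and were tested, and 5 were not. At their higher stage mean, 31 genes reached 100 CPM, 105 lay from 10 to under 100 CPM, 53 from 1 to under 10 CPM and 16 under 1 CPM. The 200 genes that encode transporters came from 44 families, and the other 5 are only named after one (Slc36a1os, Slc4a1ap, Slc7a6os, Slc9a3r1 and Slc9a3r2).

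Solute carrier genes moved in both directions between mature and immature cDC1s, about as often as genes at large, and large falls were fewer than large rises in both. In the mean of both lines, 67 were higher in mature cells, 59 lower and 74 not called, so that 63% of those tested were called, against 67.6% of all 11978 genes. The higher calls were 33.5% of those tested (33.4% of all genes) and the lower calls 29.5% (34.2% of all genes). Changes over 2-fold were called for 21 genes upward (10.5%, against 12.3% of all genes) and for 3 downward (1.5%, against 1.45%). All 3 of these falls were of genes whose stage means were under 5 CPM. The median log2 fold change was 0.02 over the solute carrier genes and -0.01 over all genes, 0.75 over the higher calls and -0.47 over the lower ones. The 8 mature libraries lay wholly above the 8 immature ones for 32 genes (18% of all genes did so) and wholly below for 26 (15% of all genes).

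These splits depend on how libraries are scaled. With upper quartile scaling, which moves the median of all genes to -0.13, 52 solute carrier genes were higher and 79 lower, and with library sizes only, which moves it to -0.23, 46 were higher and 94 lower. Genes at large shifted the same way. Of all 11978 genes, 3213 were higher and 5237 lower with upper quartile scaling, and 2716 and 6091 with library sizes only. The summed level of all 205 genes was 9675 ± 318 CPM in mature and 8464 ± 158 CPM in immature cells on the TMM scale (SD, n = 8 each), whereas their share of all counts was 0.858% to 0.930% in mature libraries and 0.890% to 0.952% in immature libraries, so the order of the 2 stages in the sum turned with the scaling. Of the called genes named below, Slc10a3 and Slc41a3 changed sign under library sizes only, at -0.08 and -0.05.

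**Figure D1:**
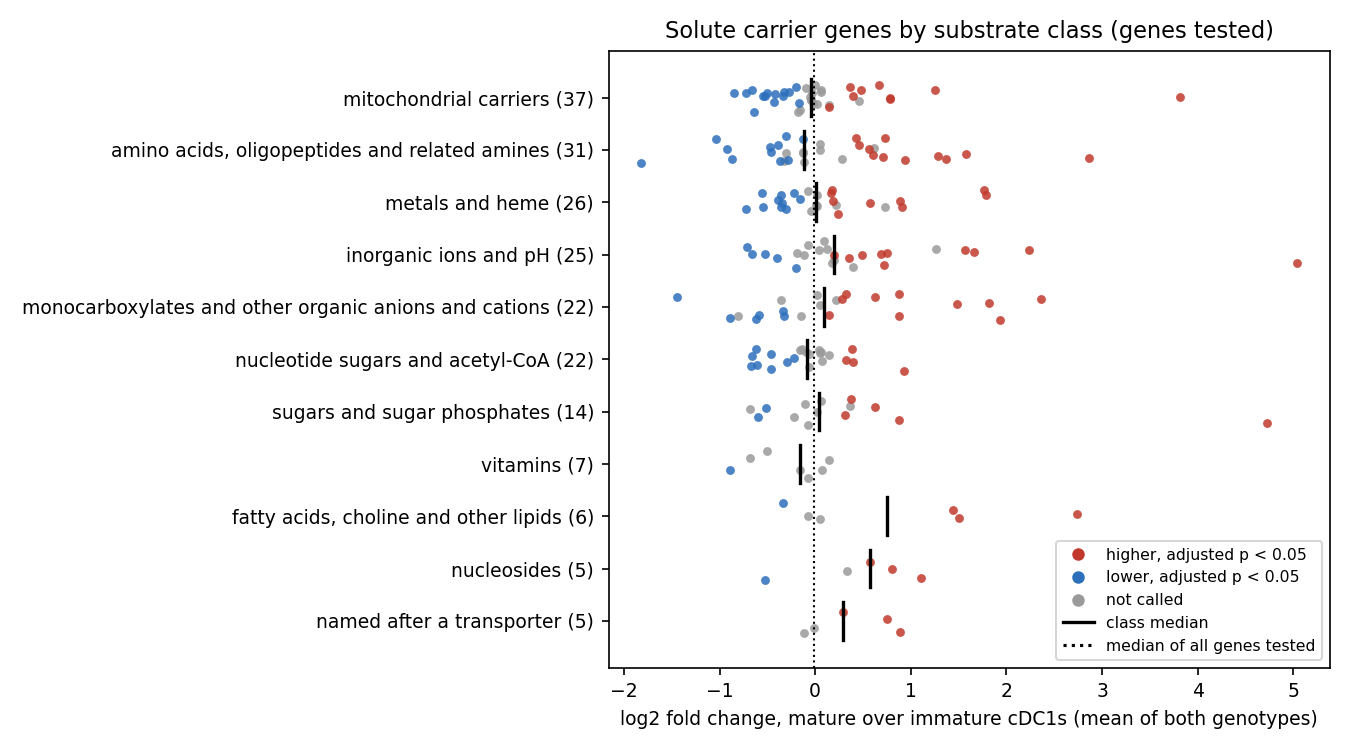
Log2 fold change of mature over immature cDC1s for the 200 tested solute carrier genes, 1 point a gene, by substrate class (number tested in brackets), with the class median as a black bar and the median of all genes tested as a dotted line. The points right of 2 belong to few genes in several classes, and the lowest point is at -1.82. The class medians of lipid and nucleoside carriers, at 0.75 and 0.57, are the highest, over only 6 and 5 genes. Among the lipid carriers, Slc44a5 and Slc27a3 lay mostly under 1 CPM.

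By substrate class, no class was called one way throughout. Over all genes tested, 33.4% were higher and 34.2% lower. Several classes were near these shares, as the amino acid carriers (35.5% each way) and the metal and heme carriers (34.6% higher, 38.5% lower). Of 31 tested carriers of amino acids, peptides and related amines, 11 were higher and 11 lower, with a median log2 fold change of -0.12. Of 37 mitochondrial carriers 9 were higher and 14 lower (median -0.05), and of 22 carriers of nucleotide sugars and acetyl-CoA 4 were higher and 8 lower (median -0.08). Of 26 metal and heme carriers 9 were higher and 10 lower (median 0.01), and of 25 carriers of inorganic ions 10 were higher and 5 lower (median 0.20). The 22 carriers of monocarboxylates and other organic ions had 10 higher and 6 lower (median 0.10), and the 14 sugar carriers 5 higher and 2 lower (median 0.04). The plot of log2 fold changes by class shows these counts gene by gene. The small classes held 3 higher and 1 lower of 6 lipid and choline carriers (median 0.75), 3 higher and 1 lower of 5 nucleoside carriers (median 0.57) and 0 higher and 1 lower of 7 vitamin carriers (median -0.15). The lipid median was 0.49 within Xbp1flIre1fl and 0.02 within Xbp1fl. Among the 3 lipid carriers called higher, Slc44a5 and Slc27a3 lay mostly under 1 CPM. With a filter of 1 CPM in at least 4 libraries, 1 lipid carrier was called higher. Slc5a6, a carrier of biotin and pantothenate that was called higher, is counted with the sugar carriers by its family number. Of the 5 genes only named after a carrier 3 were higher and 0 lower (median 0.29).

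The largest rise among genes with at least 5 CPM in a stage was that of Slc4a8 (chr15:100761747-100823968, plus strand, GRCm38), a sodium-driven exchanger of chloride for bicarbonate that loads cells with base. Its level was 250, 117, 240 and 119 CPM in mature Xbp1flIre1fl libraries and 8.26, 5.44, 6.04 and 8.65 CPM in immature ones. In Xbp1fl it was 169, 162, 194 and 179 CPM in mature libraries and 3.57, 3.67, 5.71 and 3.66 CPM in immature ones. Every mature library was far above every immature one, and the 2 lowest mature values were those of the replicates that stood apart. The log2 fold change was 5.04 ± 0.20 (SE, adjusted p = 3.99e-11), that is 32.9-fold.

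Slc2a6 (chr2:27021363-27027998, minus strand), which encodes GLUT6, an intracellular member of the facilitative glucose transporter family, followed with a lowest, median and highest level of 73.7, 132 and 175 CPM in mature and 3.07, 4.83 and 7.48 CPM in immature libraries. Slc25a29 (chr12:108825873-108835883, minus strand), the mitochondrial carrier of basic amino acids, had 17.2, 27.7 and 39.8 CPM in mature and 1.02, 1.91 and 2.93 CPM in immature libraries. For both genes the stages were far apart, with no mature library near an immature one. The log2 fold changes were 4.72 ± 0.23 (adjusted p = 2.87e-10) for Slc2a6 and 3.82 ± 0.22 (adjusted p = 2.90e-10) for Slc25a29. These SEs come from the test itself and should be read with caution where a stage holds few counts.

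The 120 bases before the RefSeq start of these 3 genes (GRCm38.p6) are shown because they are the largest rises of the set. Read on the strand of the gene, each holds the pentamer CCAAT or its reverse complement ATTGG, in capitals, which is the core of the box bound by the factor NF-Y. The windows lie at chr15:100761627-100761746 for Slc4a8 on the plus strand, chr2:27027999-27028118 for Slc2a6 and chr12:108835877-108835996 for Slc25a29 on the minus strand.
Slc4a8: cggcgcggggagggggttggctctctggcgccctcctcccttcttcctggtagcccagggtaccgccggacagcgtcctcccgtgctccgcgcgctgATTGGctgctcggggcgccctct
Slc2a6: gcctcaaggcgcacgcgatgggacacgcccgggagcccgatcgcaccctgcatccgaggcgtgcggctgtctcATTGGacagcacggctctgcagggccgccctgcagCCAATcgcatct
Slc25a29: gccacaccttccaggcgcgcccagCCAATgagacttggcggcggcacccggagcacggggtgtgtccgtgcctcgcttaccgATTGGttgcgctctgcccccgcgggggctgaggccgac
The pentamer is common. On either strand of the 250 bases before the start it occurred in 33.8% of all 32851 promoter windows and in 62 of the 156 solute carrier genes with a window (39.7%). Among these it occurred in 24 of 51 genes called higher (47.1%) and 17 of 47 called lower (36.2%). A gene counted if any of its windows held the letters, whereas the share over all windows was taken per window. A gene with several windows had more chances, so the shares of genes and of windows are not directly comparable. Shares within 120 bases, the length shown, were not counted, and 250 bases give more chances of a match. A match describes the letters and shows no binding.

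The next rises were of transporters with varied substrates, all without overlap between the stages. Slc44a1, the choline transporter CTL1, had 108, 166 and 205 CPM (lowest, median and highest) in mature and 18.1, 24.1 and 27.96 CPM in immature libraries, a log2 fold change of 2.74 ± 0.15 (adjusted p = 2.95e-10). Slc22a23, an organic ion carrier of family 22 without a settled substrate, had 86.04, 130 and 174 CPM in mature and 23.04, 25.7 and 29.6 CPM in immature libraries (2.36 ± 0.15, adjusted p = 1.71e-09). Slc26a2, a sulfate transporter, had 84.96, 131 and 186 CPM in mature and 25.1, 26.7 and 31.99 CPM in immature libraries (2.23 ± 0.13, adjusted p = 8.74e-10). The lowest mature value of these 3 genes came from Xbp1flIre1fl replicate 2 or 4, and it was still far above the highest immature one.

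Slc6a6, the taurine transporter, had the highest CPM of the 10 largest rises, with 318, 460 and 553 CPM in mature and 134, 153 and 159 CPM in immature libraries (1.57 ± 0.11, adjusted p = 1.66e-09). Slc41a2, of the magnesium transporter family, had 30.3, 47.4 and 58.02 CPM in mature and 11.4, 13.1 and 14.9 CPM in immature libraries (1.78 ± 0.12, adjusted p = 2.06e-09). Slc22a15, an organic ion carrier, averaged 16.6 ± 3.58 CPM in mature and 5.91 ± 0.847 CPM in immature cells (1.49 ± 0.13, adjusted p = 1.17e-08). Slc25a10, the mitochondrial dicarboxylate carrier, averaged 126 ± 20.1 CPM in mature and 52.8 ± 2.67 CPM in immature cells (1.25 ± 0.08, adjusted p = 4.86e-10). With Slc7a11 these made up the 11 genes that rose over 2-fold and reached 5 CPM. The other 10 rises over 2-fold were of genes below 5 CPM in both stages.

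**Figure D2:**
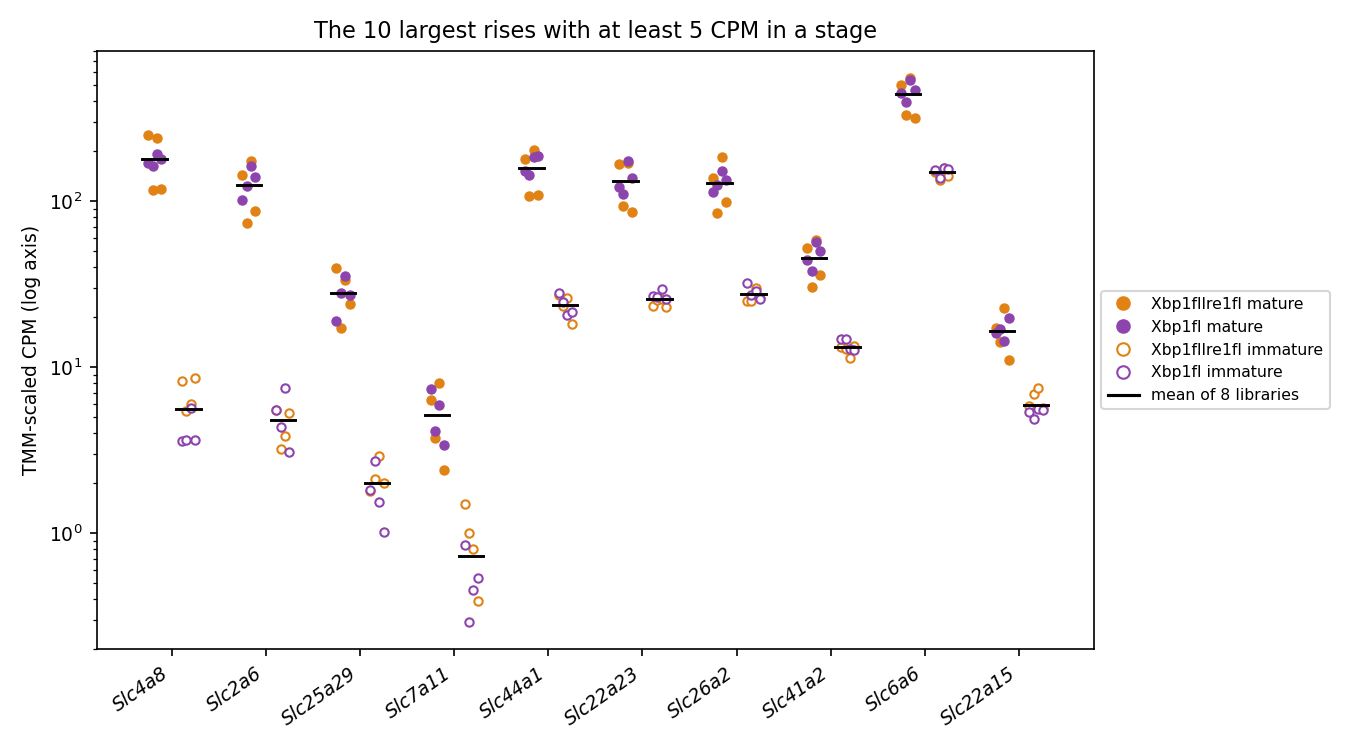
TMM-scaled CPM (log axis) of the 10 solute carrier genes with the largest rises, 1 point a library, mature libraries filled and to the left of immature ones (open) for each gene, coloured by line, with the mean of 8 libraries as a bar. Mature and immature libraries do not overlap for any of the 10, and the immature values of Slc7a11 reach down to 0.291 CPM.

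The falls were smaller, and none of a gene with 5 CPM or more reached 2-fold. Slc19a1, the reduced folate carrier, which also imports cyclic dinucleotides in human cells, led them with 3.41, 4.77 and 7.47 CPM in mature and 7.64, 9.34 and 11.2 CPM in immature libraries (log2 fold change -0.89 ± 0.14, adjusted p = 3.06e-05). Slc25a23, a calcium-dependent mitochondrial carrier of ATP-Mg and phosphate, averaged 3.73 ± 1.06 CPM in mature and 6.73 ± 1.42 CPM in immature cells (-0.85 ± 0.19, adjusted p = 0.000725). Slc4a7, a sodium bicarbonate cotransporter, had 38.8, 58.9 and 62.02 CPM in mature and 78.8, 88.3 and 109 CPM in immature libraries (-0.71 ± 0.08, adjusted p = 7.08e-07). Mature libraries lay below immature ones in all 3, with a narrow gap for Slc19a1. Slc4a7 and Slc4a8, which both bring bicarbonate into cells with sodium, thus moved in opposite directions.

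Slc35c2, a Golgi protein related to nucleotide sugar carriers and linked to fucosylation, had the highest CPM of the 10 largest falls, with 153, 197 and 240 CPM in mature and 309, 318 and 325 CPM in immature libraries (-0.67 ± 0.08, adjusted p = 4.42e-07). Slc12a9, a relative of the cation chloride cotransporters, had 34.7, 51.9 and 65.7 CPM in mature and 68.2, 79.1 and 91.8 CPM in immature libraries (-0.66 ± 0.11, adjusted p = 4.12e-05). Slc25a12, the mitochondrial aspartate/glutamate carrier, had 42.6, 47.7 and 55.3 CPM in mature and 70.5, 75.3 and 82.4 CPM in immature libraries (-0.64 ± 0.05, adjusted p = 1.17e-08). None of these 3 overlapped between stages, although Slc12a9 came close. Slc25a15, the mitochondrial ornithine carrier, fell to 10.5 ± 1.02 CPM in mature cells, against 16.7 ± 1.52 CPM in immature cells (-0.66 ± 0.08, adjusted p = 1.03e-06). Slc35g1 fell to 5.21 ± 1.17 CPM in mature cells, against 8.26 ± 0.968 CPM in immature cells (-0.66 ± 0.13, adjusted p = 0.000255), with overlap between single libraries.

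**Figure D3:**
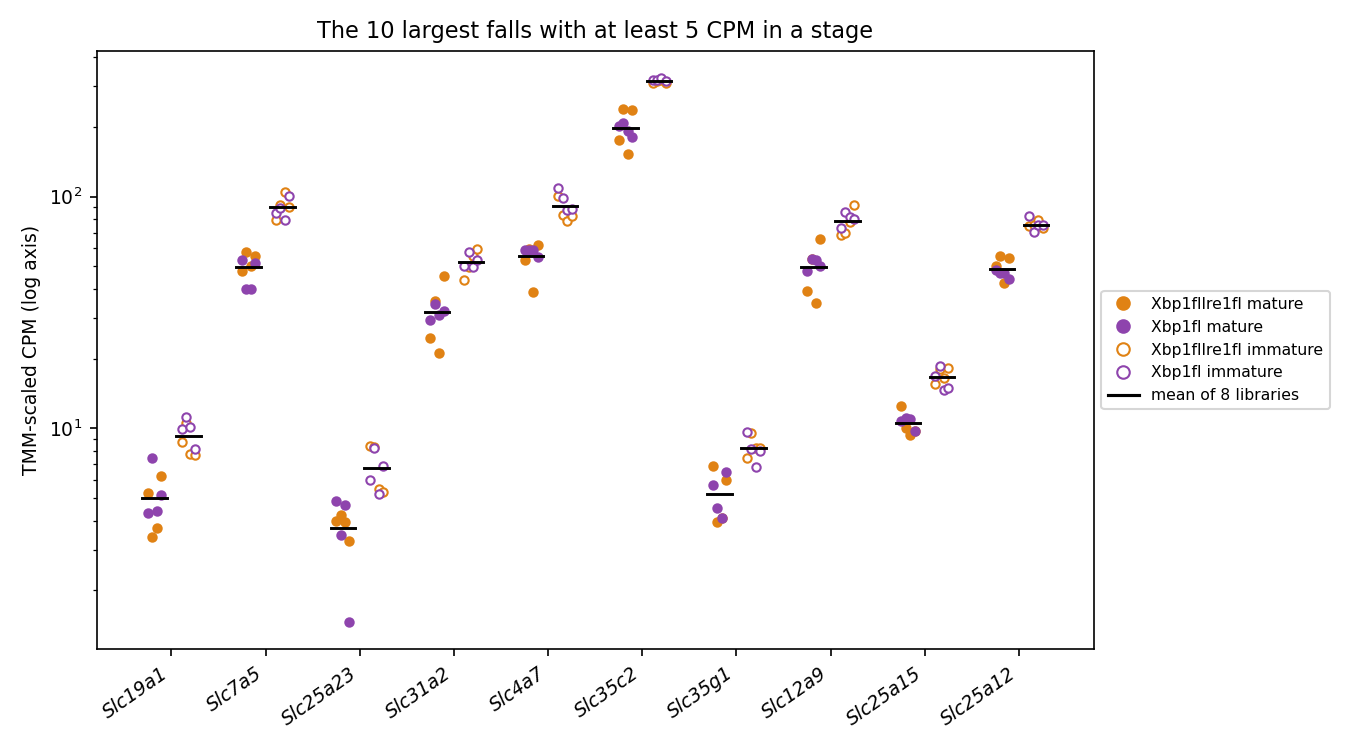
TMM-scaled CPM (log axis) of the 10 solute carrier genes with the largest falls among those with 5 CPM or more in a stage, drawn as for the rises, with mature libraries filled and to the left of immature ones. The distances are shorter than for the rises, and mature and immature libraries overlap for Slc31a2 and Slc35g1.

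The genes of the CD98 heavy chain and of its light chains did not all move the same way. Slc3a2 (chr19:8706882-8723369, minus strand) encodes the CD98 heavy chain, which carries light chains of family 7 to the surface. Its level was 527, 525, 523 and 326 CPM in mature Xbp1flIre1fl libraries and 271, 283, 282 and 220 CPM in immature ones. In Xbp1fl it was 542, 446, 541 and 515 CPM in mature libraries and 275, 225, 238 and 261 CPM in immature ones. The stages did not overlap, and Xbp1flIre1fl mature replicate 4 was the nearest to the immature libraries. The rise was 0.94 ± 0.09 on the log2 scale (adjusted p = 1.22e-07).

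Of the 5 light chain genes described here (Slc7a5, Slc7a6, Slc7a7, Slc7a8 and Slc7a11) 2 were higher, 1 lower and 2 not called, or 2 higher, 2 lower and 1 not called with library sizes only. Genes at large were split as well, with 33.4% higher and 34.2% lower on the TMM scale. Slc7a5 (chr8:121881150-121907694, minus strand), the large neutral amino acid transporter LAT1, fell to 39.9, 51.1 and 57.5 CPM (lowest, median and highest) in mature libraries, against 79.6, 89.9 and 105 CPM in immature ones, with no overlap (-0.87 ± 0.08, adjusted p = 2.15e-08). The ratio of Slc7a5 to Slc3a2 CPM within a library was 0.104 ± 0.0286 in mature and 0.354 ± 0.0436 in immature cells (SD, n = 8 each), with ranges of 0.0738 to 0.17 in mature libraries and 0.293 to 0.412 in immature libraries. Slc7a11 (chr3:49892526-50443614, minus strand), the cystine/glutamate exchanger xCT, was low, with 2.40, 5.02 and 8.02 CPM in mature and 0.291, 0.672 and 1.49 CPM in immature libraries. The stages did not overlap. Its rise was 2.86 ± 0.31 (adjusted p = 2.43e-07), on 585 counts in mature and 101 counts in immature libraries.

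The other light chains named here had smaller estimates. Slc7a6 (y+LAT2), an exchanger of cationic for neutral amino acids, had 23.4, 28.9 and 33.9 CPM in mature and 14.5, 16.98 and 19.3 CPM in immature libraries, without overlap (0.73 ± 0.09, adjusted p = 2.03e-06). Slc7a7 (y+LAT1) averaged 22.05 ± 3.01 CPM in mature and 21.3 ± 2.72 CPM in immature cells (0.05 ± 0.07, adjusted p = 0.503). Slc7a8 (LAT2) averaged 27.3 ± 6.69 CPM in mature and 29.9 ± 3.43 CPM in immature cells (-0.13 ± 0.13, adjusted p = 0.378). Both overlapped between stages, and Slc7a8 was called lower without Xbp1flIre1fl mature replicate 4 (-0.26, adjusted p = 0.0127) and with library sizes only (-0.35, adjusted p = 0.0340).

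**Figure D4:**
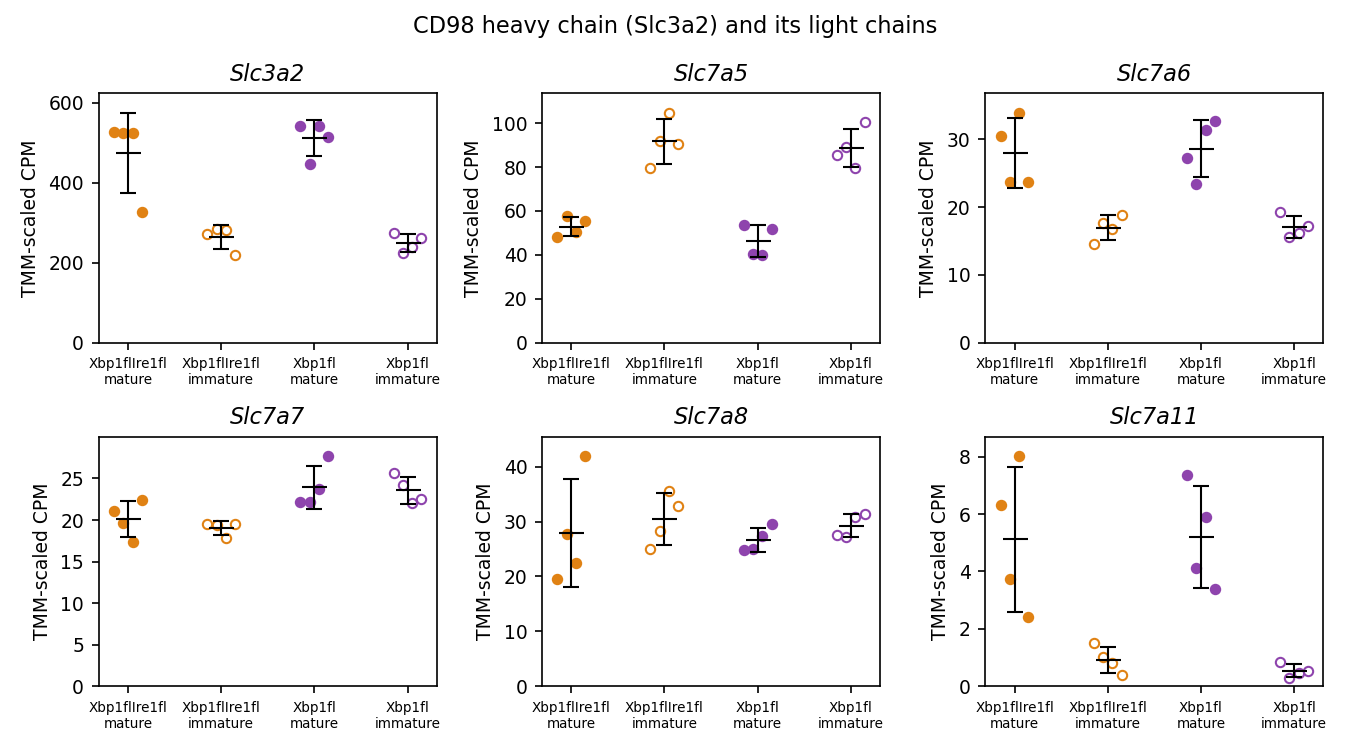
TMM-scaled CPM (linear axes from 0) of the CD98 heavy chain gene Slc3a2 and of 5 light chain genes in the 4 groups, 1 point a library, with the mean and SD of 4 libraries, mature groups filled and to the left of the immature group of the same line. Slc3a2, Slc7a6 and Slc7a11 are higher in the mature groups of both lines and Slc7a5 lower, whereas the groups of Slc7a7 and Slc7a8 overlap.

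The promoter windows of the exchanger xCT and of its heavy chain are shown because both genes rose and both are known targets of the amino acid response. That response acts through an element with the letters TGATGNAA, in which N is any base. The 120 bases before the RefSeq start of Slc7a11 (chr3:50443614-50443733, minus strand) hold it in both orientations, in capitals, and those of Slc3a2 (chr19:8713898-8714017, minus strand) hold none. The Slc3a2 window lies inside the GENCODE span of the gene given above, so the bases before its GENCODE start were not searched.
Slc7a11: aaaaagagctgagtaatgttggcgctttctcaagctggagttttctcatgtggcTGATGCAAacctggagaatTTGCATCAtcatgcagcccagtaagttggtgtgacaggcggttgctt
Slc3a2: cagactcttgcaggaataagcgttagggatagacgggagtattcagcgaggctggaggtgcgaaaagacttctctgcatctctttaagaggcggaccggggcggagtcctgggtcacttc
On either strand of the 250 bases before the start the element occurred in 3.45% of all windows and in 5 of the 156 solute carrier genes with a window (3.21%), 2 of them called higher and 1 lower. The consensus of NF-kB, searched the same way, occurred in 3.9% of all windows and in 11 of the 156 (7.05%), 2 called higher and 6 lower. Here too a gene counted if any of its windows matched, so shares of genes and of windows are not directly comparable. Shares within the 120 bases shown were again not counted.

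Glutamine and arginine carriers of the plasma membrane also moved both ways. Slc1a5 (ASCT2), an exchanger of neutral amino acids including glutamine, had 85.8, 94.1 and 119 CPM in mature and 101, 141 and 154 CPM in immature libraries (-0.46 ± 0.08, adjusted p = 0.000106). Slc38a1 (SNAT1), a sodium-coupled glutamine carrier, averaged 96.7 ± 10.5 CPM in mature and 127 ± 10.2 CPM in immature cells (-0.39 ± 0.07, adjusted p = 4.09e-05), and Slc7a1 (CAT1), a carrier of arginine and lysine, 26.4 ± 4.14 CPM in mature and 36.5 ± 3.58 CPM in immature cells (-0.47 ± 0.09, adjusted p = 0.000103). All 3 fell, with overlap between single libraries. Slc38a2 (SNAT2), which has the same kind of substrates as SNAT1, rose instead, with 192, 219 and 254 CPM in mature and 153, 167 and 174 CPM in immature libraries and no overlap (0.42 ± 0.05, adjusted p = 1.64e-06).

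Among carriers of lysosomes and endosomes, Slc15a4, which exports histidine and peptides from the endolysosome and is needed for signalling of endosomal Toll-like receptors, had 50.1, 65.2 and 68.1 CPM in mature and 34.8, 40.8 and 49.1 CPM in immature libraries. The stages were separate by a narrow margin, and the rise was 0.61 ± 0.08 (adjusted p = 2.25e-06). Its relative Slc15a3 averaged 5.36 ± 1.86 CPM in mature and 3.87 ± 0.613 CPM in immature cells (0.46 ± 0.19, adjusted p = 0.0415), a call lost in 9 of the 16 fits without 1 library, at adjusted p up to 0.143 without Xbp1fl mature replicate 1 (log2 fold change 0.27). It was also lost under upper quartile scaling (0.34, adjusted p = 0.121), with library sizes only (0.23, adjusted p = 0.272), without the filter (adjusted p = 0.0513) and with limma (adjusted p = 0.0683). Of its exon bases 28.1% are shared with Tmem132a on the other strand, and the strand setting of the counting is not given. Slc38a7, a lysosomal glutamine exporter, averaged 23.7 ± 5.18 CPM in mature and 14.5 ± 2.28 CPM in immature cells (0.71 ± 0.13, adjusted p = 0.000117). Slc17a5, which exports sialic acid from lysosomes, averaged 7.71 ± 1.65 CPM in mature and 4.17 ± 0.408 CPM in immature cells (0.88 ± 0.13, adjusted p = 6.86e-06). Slc38a9, the lysosomal arginine sensor upstream of mTORC1, fell to 10.95 ± 1.11 CPM in mature cells, against 13.6 ± 1.25 CPM in immature cells (-0.31 ± 0.08, adjusted p = 0.00325).

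The lysosomal nucleoside carrier Slc29a3 (ENT3) had 89.5, 106 and 120 CPM in mature and 62.3, 72.5 and 75.1 CPM in immature libraries, without overlap (0.57 ± 0.06, adjusted p = 1.86e-07). Slc29a1 (ENT1), which moves nucleosides across the plasma membrane, had 25.7, 29.4 and 40.97 CPM in mature and 40.8, 45.1 and 51.5 CPM in immature libraries (-0.52 ± 0.07, adjusted p = 3.14e-06). Slc29a2 (ENT2) was low, with 2.31 ± 0.530 CPM in mature and 1.06 ± 0.410 CPM in immature cells (1.11 ± 0.24, adjusted p = 0.000614). Members of the same equilibrative nucleoside family thus rose and fell. Slc9a9, an endosomal sodium/proton exchanger, fell to 84.9, 120 and 140 CPM in mature libraries, against 155, 164 and 199 CPM in immature ones (-0.52 ± 0.09, adjusted p = 4.01e-05).

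Of the 5 tested genes of family 6, 3 were lower, 1 higher and 1 not called. That was 60% lower and 20% higher, against 34.2% and 33.4% of all genes. The 3 lower ones, carriers of neurotransmitters and osmolytes, were at low levels, and the higher one was the taurine transporter. Slc6a9 (GLYT1), a glycine carrier, had 0.791 ± 0.356 CPM in mature and 2.83 ± 1.25 CPM in immature cells (-1.82 ± 0.28, adjusted p = 1.75e-05), with 27.8% of its exon bases shared with B4galt2 and Ccdc24 on the other strand. Slc6a13 (GAT2) had 2.02 ± 0.519 CPM in mature and 4.17 ± 0.641 CPM in immature cells (-1.04 ± 0.17, adjusted p = 3.08e-05). Slc6a12 (BGT1), its neighbour on chromosome 6 and a carrier of betaine and GABA, had 1.90 ± 0.553 CPM in mature and 3.62 ± 0.853 CPM in immature cells (-0.92 ± 0.20, adjusted p = 0.000523). The glutamate carrier Slc1a3 (EAAT1) averaged 1.09 ± 0.436 CPM in mature and 0.466 ± 0.517 CPM in immature cells (1.37 ± 0.45, adjusted p = 0.0117), with overlap.

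The glucose uptake carriers GLUT1 and GLUT3 were near the threshold of the test. Slc2a1 (GLUT1), the main uptake carrier of many cells, had 19.3, 25.1 and 35.4 CPM in mature and 24.3, 30.03 and 37.7 CPM in immature libraries (-0.22 ± 0.10, adjusted p = 0.0554). With the replicate block it was called lower (-0.22, adjusted p = 0.0456), as in 4 of the 16 fits without 1 library (adjusted p 0.00849 to 0.0395, the lowest without Xbp1flIre1fl mature replicate 4). It was also called lower under upper quartile scaling (-0.34, adjusted p = 0.00584), with library sizes only (-0.44, adjusted p = 0.00136) and without the filter on low counts (-0.23, adjusted p = 0.0426). Slc2a3 (GLUT3) had 8.95, 13.96 and 18.5 CPM in mature and 9.47, 11.5 and 15.8 CPM in immature libraries (0.31 ± 0.13, adjusted p = 0.0384), a call lost in 9 of the 16 such fits, at adjusted p up to 0.111 without Xbp1fl mature replicate 2 (0.22). The call was lost too under upper quartile scaling (0.19, adjusted p = 0.189), with library sizes only (0.09, adjusted p = 0.535) and without the filter (0.29, adjusted p = 0.0526). Both overlapped widely between stages. Of the 5 tested genes of family 2, 2 were higher and 0 lower on the TMM scale, and 1 higher and 1 lower with either of the other scalings. Of all genes, 33.4% were higher and 34.2% lower on the TMM scale. Among sugar phosphate carriers of the endoplasmic reticulum, Slc37a2 averaged 10.9 ± 2.70 CPM in mature and 6.97 ± 1.36 CPM in immature cells (0.63 ± 0.12, adjusted p = 0.000185). The glucose-6-phosphate carrier Slc37a4 averaged 9.33 ± 1.14 CPM in mature and 14.1 ± 1.72 CPM in immature cells (-0.59 ± 0.10, adjusted p = 4.05e-05), and Slc37a3 10.2 ± 1.82 CPM in mature and 14.6 ± 1.38 CPM in immature cells (-0.51 ± 0.10, adjusted p = 0.000221).

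Lactate carriers diverged. Slc16a3 (MCT4), known for lactate export from glycolytic cells, had 8.52, 10.7 and 12.4 CPM in mature and 5.31, 6.96 and 7.75 CPM in immature libraries, without overlap (0.62 ± 0.10, adjusted p = 3.37e-05). Slc16a1 (MCT1) had 16.97, 21.5 and 29.6 CPM in mature and 22.5, 27.6 and 34.3 CPM in immature libraries (-0.33 ± 0.12, adjusted p = 0.0225), a call lost without Xbp1fl immature replicate 1 (-0.27, adjusted p = 0.0538) and without Xbp1flIre1fl mature replicates 2 and 4 (-0.27, adjusted p = 0.0761). Slc16a13 averaged 6.04 ± 1.26 CPM in mature and 9.07 ± 0.678 CPM in immature cells (-0.59 ± 0.11, adjusted p = 0.000175). In all, 2 of the 9 genes of family 16 were higher and 3 lower (22.2% and 33.3%, against 33.4% and 34.2% of all genes). With either other scaling 1 was higher and 3 lower.

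Against 33.4% of all genes, 83.3% of the organic ion carriers of family 22 were higher. Of these 6 genes 5 were called, all upward, although with library sizes only 3 were higher and 1 lower. Besides Slc22a23 and Slc22a15 they included Slc22a4 (OCTN1), the ergothioneine carrier, with 0.944 ± 0.417 CPM in mature cells and 0.241 ± 0.176 CPM in immature cells (1.93 ± 0.45, adjusted p = 0.00107). The vesicular monoamine carrier Slc18a1 (VMAT1) was also low, with 3.17 ± 1.18 CPM in mature cells and 0.888 ± 0.415 CPM in immature cells (1.81 ± 0.31, adjusted p = 4.59e-05). Going the other way, the vesicular nucleotide carrier Slc17a9 (VNUT) averaged 2.44 ± 0.585 CPM in mature and 4.52 ± 0.854 CPM in immature cells (-0.89 ± 0.16, adjusted p = 9.93e-05). The urea transporter Slc14a1 had 17.2, 26.9 and 35.4 CPM in mature and 27.5, 42.2 and 47.9 CPM in immature libraries (-0.62 ± 0.13, adjusted p = 0.000564).

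Among carriers of inorganic ions, those of sulfate and other anions in family 26 were higher in 3 of 4 genes and lower in 0, or lower in 1 with library sizes only. On the TMM scale 33.4% of all genes were higher. Slc26a6, an anion exchanger, averaged 5.69 ± 1.55 CPM in mature and 3.52 ± 0.787 CPM in immature cells (0.69 ± 0.17, adjusted p = 0.00195), and Slc26a10, of which 17.8% of exon bases are shared with B4galnt1 on the other strand, 1.04 ± 0.290 CPM in mature and 0.344 ± 0.133 CPM in immature cells (1.57 ± 0.27, adjusted p = 5.76e-05). The chloride/bicarbonate exchanger Slc4a2 (AE2), 13.7% of whose exon bases are shared with Fastk on the other strand, had 57.1, 73.2 and 86.02 CPM in mature and 39.3, 43.2 and 47.2 CPM in immature libraries (0.75 ± 0.08, adjusted p = 3.07e-07). The stages did not overlap for this gene. Slc12a2 (NKCC1), a cotransporter of sodium, potassium and chloride, averaged 62.5 ± 4.50 CPM in mature and 49.01 ± 5.38 CPM in immature cells (0.35 ± 0.07, adjusted p = 0.000183), a call lost with library sizes only (0.13, adjusted p = 0.121). Slc12a3 (NCC), a cotransporter of sodium and chloride, averaged 4.77 ± 1.08 CPM in mature and 1.502 ± 0.505 CPM in immature cells (1.66 ± 0.20, adjusted p = 9.73e-07).

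Calcium exchangers of the plasma membrane and of mitochondria moved apart. Slc8a1 (NCX1), at the plasma membrane, averaged 35.2 ± 5.35 CPM in mature and 46.4 ± 3.57 CPM in immature cells (-0.40 ± 0.08, adjusted p = 0.000388). Slc8b1 (NCLX), the mitochondrial sodium/calcium exchanger, had 578, 647 and 742 CPM in mature and 417, 467 and 535 CPM in immature libraries, without overlap (0.49 ± 0.06, adjusted p = 1.79e-06).

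The copper carriers Slc31a1 (CTR1) and Slc31a2 (CTR2) both fell, as they did under both other scalings. Slc31a1 had 31.1, 36.3 and 41.4 CPM in mature and 48.8, 53.1 and 58.7 CPM in immature libraries (-0.55 ± 0.07, adjusted p = 7.93e-07), with no overlap. Slc31a2 had 21.1, 31.6 and 45.6 CPM in mature and 43.7, 51.8 and 59.2 CPM in immature libraries (-0.72 ± 0.12, adjusted p = 7.15e-05), with 1 mature library, Xbp1flIre1fl replicate 4, above the lowest immature one.

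The magnesium transporters of family 41 were higher in all 3 genes, or in 2 with either other scaling. On the TMM scale 33.4% of all genes were higher. Slc41a1 had 135, 149, 137 and 80.3 CPM in mature Xbp1flIre1fl libraries and 71.7, 87.7, 86.6 and 46.03 CPM in immature ones. In Xbp1fl it had 148, 121, 126 and 112 CPM in mature libraries and 73.7, 59.04, 65.1 and 56.9 CPM in immature ones. Replicate 4 of Xbp1flIre1fl was low in both stages, so that the stages overlapped although each mature library was above the immature one of its number (0.88 ± 0.14, adjusted p = 4.56e-05). Slc41a3 changed least, with 10.5 ± 0.484 CPM in mature cells and 9.31 ± 0.874 CPM in immature cells (0.18 ± 0.07, adjusted p = 0.0429). That call was lost under both other scalings, without the filter (adjusted p = 0.128), with the replicate block (adjusted p = 0.0539) and in 12 of the 16 fits without 1 library (adjusted p up to 0.0906).

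Zinc importers of family 39 were lower in 6 of 11 genes and higher in 4, or in 2 with either other scaling. On the TMM scale that was 54.5% lower and 36.4% higher, against 34.2% and 33.4% of all genes. The importer Slc39a7 (ZIP7), which releases zinc from the endoplasmic reticulum, averaged 93.5 ± 7.67 CPM in mature and 122 ± 9.15 CPM in immature cells (-0.39 ± 0.06, adjusted p = 1.09e-05). Slc39a11 averaged 43.8 ± 4.10 CPM in mature and 56.02 ± 4.06 CPM in immature cells (-0.35 ± 0.06, adjusted p = 2.89e-05). The plasma membrane importer Slc39a6 (ZIP6) averaged 36.3 ± 1.48 CPM in mature and 44.9 ± 3.80 CPM in immature cells (-0.31 ± 0.05, adjusted p = 7.89e-05). Its partner Slc39a10 (ZIP10) fell by 0.35 on the log2 scale (adjusted p = 0.000321) and Slc39a9 by 0.16 (adjusted p = 0.0126). Slc39a4 was low, with 1.56 ± 0.865 CPM in mature cells and 0.418 ± 0.274 CPM in immature cells, and rose (1.77 ± 0.37, adjusted p = 0.000334). Slc39a14 (ZIP14), a carrier of zinc and iron, averaged 8.94 ± 1.10 CPM in mature and 8.87 ± 1.26 CPM in immature cells (0.01 ± 0.11, adjusted p = 0.940).

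Of the zinc exporters of family 30, 1 was higher and 2 lower of 6 tested (16.7% and 33.3%, against 33.4% and 34.2% of all genes). Under upper quartile scaling 1 was higher and 3 lower, and with library sizes only 1 was higher and 4 lower. Slc30a4 (ZnT4), which loads zinc into endosomes, averaged 41.96 ± 5.17 CPM in mature and 22.3 ± 1.88 CPM in immature cells, without overlap (0.91 ± 0.08, adjusted p = 1.02e-08). Slc30a5 (ZnT5), of the secretory pathway, averaged 68.6 ± 5.61 CPM in mature and 88.02 ± 4.66 CPM in immature cells (-0.36 ± 0.05, adjusted p = 1.14e-05). Slc30a1 (ZnT1), the exporter of the plasma membrane, averaged 22.8 ± 4.75 CPM in mature and 19.5 ± 2.30 CPM in immature cells (0.22 ± 0.12, adjusted p = 0.0993). It was called higher with the replicate block (0.21, adjusted p = 0.0293) and without Xbp1flIre1fl mature replicate 4 (0.28, adjusted p = 0.0266). The genes of zinc sensing and buffering named here were higher. The zinc-sensing factor Mtf1 had 54.8 ± 6.67 CPM in mature and 23.4 ± 2.91 CPM in immature cells (1.23 ± 0.08, adjusted p = 2.84e-10). The zinc-binding metallothionein Mt1 had 28.8 ± 5.54 CPM in mature and 17.1 ± 1.85 CPM in immature cells (0.75 ± 0.11, adjusted p = 9.18e-06), and Mt2 1.83 ± 0.660 CPM in mature and 0.384 ± 0.172 CPM in immature cells (2.23 ± 0.30, adjusted p = 3.62e-06).

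Of Slc40a1, Slc11a1, Slc25a37 and Slc25a28, which move iron, only Slc25a28 was called by edgeR on the TMM scale, and the other 3 were each called under some other setting. Slc40a1 (ferroportin), the iron exporter, which red pulp macrophages express strongly, had 123, 29.6, 117 and 126 CPM in mature Xbp1flIre1fl libraries and 23.96, 44.2, 34.3 and 43.01 CPM in immature ones. In Xbp1fl it had 64.8, 46.7, 53.03 and 56.01 CPM in mature libraries and 57.3, 32.96, 13.9 and 112 CPM in immature ones. The stages overlapped, and the highest immature value came from Xbp1fl immature replicate 4, which also had the highest macrophage marker sum of the immature libraries, at 594.6 CPM. The log2 fold change was 0.73 ± 0.38 (adjusted p = 0.102), and the gene was called higher without that library (1.05, adjusted p = 0.0132), without Xbp1flIre1fl mature replicate 2 (0.88, adjusted p = 0.0316) and with limma (0.82, adjusted p = 0.0440). Slc11a1 (NRAMP1), the phagosomal metal exporter, averaged 176 ± 18.7 CPM in mature and 182 ± 9.94 CPM in immature cells (-0.05 ± 0.06, adjusted p = 0.517), and was called lower without Xbp1flIre1fl mature replicates 2 and 4 (-0.15, adjusted p = 0.00447), under upper quartile scaling (-0.17, adjusted p = 0.0292) and with library sizes only (-0.27, adjusted p = 0.00325). Of the mitoferrins, Slc25a37 averaged 5.72 ± 0.436 CPM in mature and 5.88 ± 0.913 CPM in immature cells (-0.03 ± 0.10, adjusted p = 0.778), and was called lower with library sizes only (-0.26, adjusted p = 0.0275). Slc25a28 averaged 12.2 ± 1.90 CPM in mature and 15.3 ± 1.25 CPM in immature cells (-0.33 ± 0.09, adjusted p = 0.00508). Slc4a1, the anion exchanger of red cells, ranged over 0.343 to 12.4 CPM in mature libraries and 0 to 3.01 CPM in immature libraries (1.27 ± 0.75, adjusted p = 0.149). None of the 5 tested erythroid markers was called, and their list summed to 4.60 to 18.1 CPM in mature and 3.80 to 25.3 CPM in immature libraries.

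Within mitochondria, the ADP/ATP carriers moved in opposite directions. Slc25a4 (ANT1; chr8:46206797-46211284, minus strand) had 174, 205 and 221 CPM in mature and 141, 154 and 166 CPM in immature libraries (0.39 ± 0.04, adjusted p = 5.05e-07). Slc25a5 (ANT2; chrX:36795651-36798807, plus strand) had 413, 451 and 521 CPM in mature and 594, 614 and 644 CPM in immature libraries (-0.42 ± 0.05, adjusted p = 1.61e-06). Neither gene overlapped between stages, and Slc25a5 stayed the more abundant one. The ratio of Slc25a4 to Slc25a5 CPM within a library was 0.442 ± 0.0669 in mature and 0.249 ± 0.0110 in immature cells (SD, n = 8 each), with ranges of 0.333 to 0.524 in mature libraries and 0.233 to 0.263 in immature libraries. Slc25a5 has processed copies in the mouse genome, and how reads shared with them were counted is not given, so its level is uncertain.

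Other mitochondrial carriers spanned amino acids, cofactors and nucleotides. Slc25a25, a calcium-dependent carrier of ATP-Mg and phosphate like Slc25a23, rose to 91.3 ± 9.01 CPM in mature cells, against 65.2 ± 9.03 CPM in immature cells (0.48 ± 0.08, adjusted p = 4.57e-05). Slc25a33, a pyrimidine nucleotide carrier, varied widely within both stages, at 17.8 to 68.3 CPM in mature and 12.6 to 41.6 CPM in immature libraries (0.79 ± 0.27, adjusted p = 0.0195). Each of its 8 mature libraries was above the immature one of its number, and the call was lost with library sizes only (0.56, adjusted p = 0.0721). Downward, the glutamate carrier Slc25a22 averaged 25.8 ± 3.19 CPM in mature and 37.1 ± 2.62 CPM in immature cells (-0.52 ± 0.07, adjusted p = 4.32e-06). Slc25a45 averaged 48.8 ± 6.76 CPM in mature and 69.3 ± 3.60 CPM in immature cells (-0.51 ± 0.07, adjusted p = 1.07e-05). The folate and flavin carrier Slc25a32 averaged 10.8 ± 1.52 CPM in mature and 15.8 ± 1.70 CPM in immature cells (-0.54 ± 0.09, adjusted p = 3.49e-05), and the glutathione carrier Slc25a39 102 ± 9.96 CPM in mature and 128 ± 7.72 CPM in immature cells (-0.34 ± 0.06, adjusted p = 4.16e-05).

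Family 35 holds carriers that supply the Golgi and endoplasmic reticulum with nucleotide sugars. Of its 21 genes 8 were lower (38.1%) and 3 higher (14.3%) on the TMM scale, against 34.2% and 33.4% of all genes. The share of lower calls was thus close to that of all genes. Under upper quartile scaling 12 were lower, as were 5237 of all 11978 genes. With library sizes only 13 were lower, as were 6091 of all genes. The GDP-fucose carrier Slc35c1 had 20.8, 24.5 and 36.7 CPM in mature and 38.3, 39.8 and 42.2 CPM in immature libraries, without overlap (-0.62 ± 0.09, adjusted p = 5.03e-06). Slc35b1, which brings ATP into the endoplasmic reticulum, had 40.8, 44.1 and 57.6 CPM in mature and 64.3, 70.2 and 83.6 CPM in immature libraries (-0.60 ± 0.07, adjusted p = 2.88e-07). Slc35a4 averaged 104 ± 10.2 CPM in mature and 144 ± 6.04 CPM in immature cells (-0.46 ± 0.05, adjusted p = 4.43e-07), and the CMP-sialic acid carrier Slc35a1 12.4 ± 1.74 CPM in mature and 17.1 ± 1.09 CPM in immature cells (-0.46 ± 0.08, adjusted p = 5.92e-05). Upward went Slc35a3, a carrier of UDP-N-acetylglucosamine, with 81.6 ± 9.57 CPM in mature cells and 62.5 ± 4.29 CPM in immature cells (0.38 ± 0.07, adjusted p = 9.75e-05), and Slc35b4, with 49.8 ± 5.58 CPM in mature cells and 37.9 ± 3.21 CPM in immature cells (0.40 ± 0.07, adjusted p = 4.04e-05). Slc33a1, of another family, imports acetyl-CoA into the endoplasmic reticulum and had 80.2, 106 and 117 CPM in mature and 47.5, 52.7 and 63.8 CPM in immature libraries (0.92 ± 0.08, adjusted p = 2.60e-08).

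Choline carriers moved both ways. Slc44a2 (CTL2), the relative of the choline transporter Slc44a1, averaged 121 ± 14.2 CPM in mature and 153 ± 10.2 CPM in immature cells (-0.34 ± 0.06, adjusted p = 8.01e-05), and Slc44a5 0.561 ± 0.278 CPM in mature and 0.221 ± 0.194 CPM in immature cells (1.44 ± 0.51, adjusted p = 0.0183). Slc23a2 (SVCT2), which takes up vitamin C, averaged 25.6 ± 2.21 CPM in mature and 23.2 ± 1.53 CPM in immature cells (0.14 ± 0.06, adjusted p = 0.0502). It was called higher with the replicate block (0.14, adjusted p = 0.0366), DESeq2, limma, the 1 CPM filter and without robust estimation (adjusted p 0.0314 to 0.0473), lay at -0.08 with library sizes only, and was called higher in 5 of the 16 fits without 1 library (adjusted p 0.0213 to 0.0455, the lowest without Xbp1flIre1fl mature replicate 2). Slc5a6, placed with the sugar carriers by its family number, carries biotin and pantothenate and averaged 9.17 ± 1.62 CPM in mature and 4.97 ± 0.897 CPM in immature cells (0.88 ± 0.13, adjusted p = 1.01e-05). Slc9a3r1 (NHERF1) and Slc9a3r2 (NHERF2), scaffolds named after a sodium/proton exchanger and no carriers themselves, rose without overlap. Slc9a3r1 had 160, 179 and 207 CPM in mature and 95.1, 108 and 117 CPM in immature libraries (0.75 ± 0.06, adjusted p = 5.07e-09), and Slc9a3r2 averaged 18.9 ± 3.46 CPM in mature and 10.2 ± 1.12 CPM in immature cells (0.89 ± 0.08, adjusted p = 3.99e-08).

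Levels of different genes were compared per kb of exon, as the mean of all 16 libraries on the TMM-scaled CPM scale. Slc25a5 was the highest, at 328 ± 51.8 CPM per kb (SD, n = 16), followed by Slc8b1 at 163 ± 31.1, the lysosomal Slc46a3 at 134 ± 7.09 and Slc3a2 at 106 ± 37.8 CPM per kb. The mitochondrial oxoglutarate/malate carrier Slc25a11 at 79.3 ± 2.73 and Slc9a3r1 at 75.6 ± 20.9 CPM per kb came next, within each other's spread. The order differed by stage. Slc25a5 was at 281 ± 24.8 CPM per kb in mature and 375 ± 9.06 in immature cells, and Slc8b1 at 190 ± 15.4 in mature and 135 ± 12 in immature cells (SD, n = 8 each). In mature cells Slc3a2 (140 ± 21.1 CPM per kb) and Slc46a3 (137 ± 7.17) were within each other's spread and above Slc9a3r1 (94.9 ± 8.84) and Slc25a11 (79.3 ± 3.55). In immature cells Slc46a3 (130 ± 5.53 CPM per kb) was within the spread of Slc8b1, and Slc25a11 (79.2 ± 1.83) lay above Slc3a2 (72.8 ± 7.25), within its spread, and above Slc9a3r1 (56.4 ± 3.37). Of these 6 genes, Slc46a3 and Slc25a11 were not called between stages by edgeR on the TMM scale. Slc46a3 had 305, 339 and 357 CPM in mature and 297, 319 and 342 CPM in immature libraries (0.07 ± 0.04, adjusted p = 0.137). It was called higher without Xbp1fl mature replicate 1 (0.09, adjusted p = 0.0484) and with DESeq2 (0.09, adjusted p = 0.0393). It lay at -0.05 under upper quartile scaling (adjusted p = 0.335) and was called lower with library sizes only (-0.15, adjusted p = 0.00704). Slc25a11 averaged 168 ± 7.53 CPM in mature and 168 ± 3.89 CPM in immature cells (log2 fold change 0.00 ± 0.04, adjusted p = 0.987), and was called lower under upper quartile scaling (-0.12, adjusted p = 0.0116) and with library sizes only (-0.22, adjusted p = 0.000165).

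Most solute carrier genes called within one floxed line were called the same way within the other, as were most genes at large. Within Xbp1flIre1fl 58 solute carrier genes were higher and 48 lower in mature cells (53%, against 53.5% of all genes, of which 27.4% were higher and 26.1% lower), and within Xbp1fl 52 were higher and 50 lower (51%, against 56.8% of all genes, of which 28.4% were higher and 28.3% lower). Called the same way in both lines were 46 genes upward and 44 downward, which is 84.9% of the calls within Xbp1flIre1fl and 88.2% of those within Xbp1fl. Over all genes tested, 2880 were called upward and 2730 downward in both lines, which is 87.6% of the calls within Xbp1flIre1fl and 82.5% of those within Xbp1fl. In opposite directions 0 solute carrier genes and 2 of all genes were called. A further 16 were called within Xbp1flIre1fl alone and 12 within Xbp1fl alone, which does not show that they differ between the lines. The interaction, which tests that difference, called 0 solute carrier genes and 0 of all genes (0%), with 10 and 329 at an unadjusted p under 0.05. DESeq2, limma and the fit with the replicate block also called 0 solute carrier genes.

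**Figure D5:**
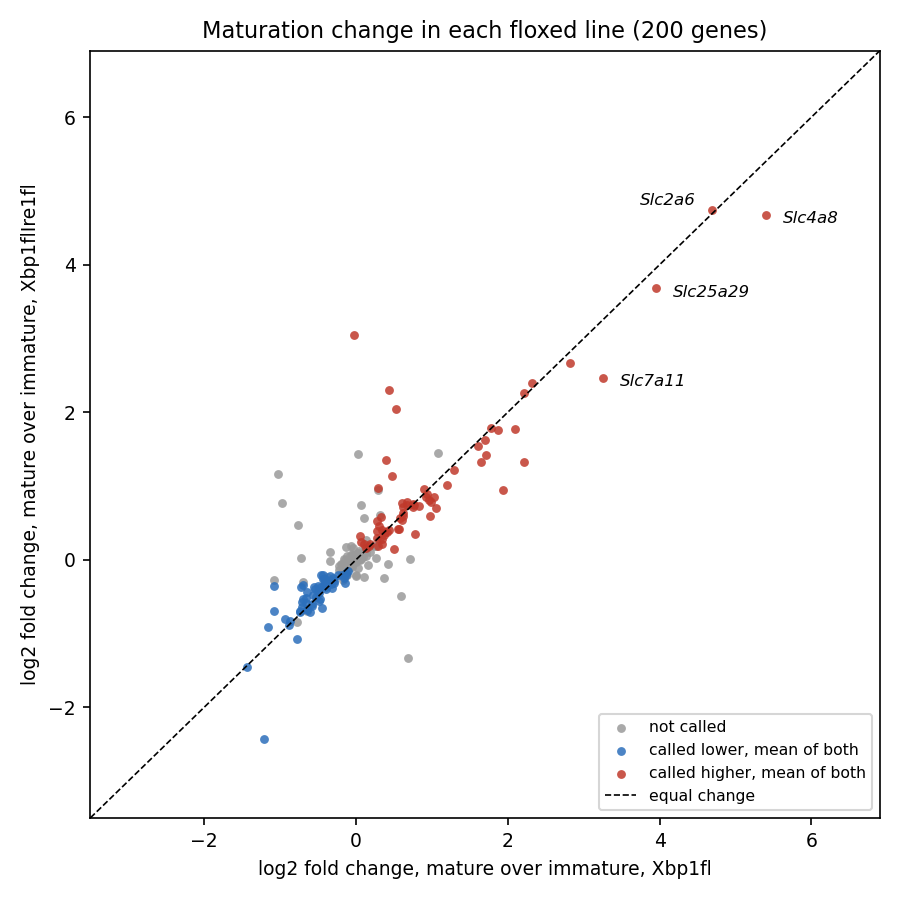
Log2 fold change of mature over immature cDC1s in Xbp1flIre1fl (vertical axis) against that in Xbp1fl (horizontal axis) for the 200 tested solute carrier genes, coloured by their call in the mean of both lines, with the line of equal change dashed. The 4 labelled genes lie between 2.47 and 5.40 in both lines, and the point far above the line at 3.04 is Slc27a3.

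The smallest unadjusted interaction p belonged to a gene with few counts. Slc27a3, of the fatty acid transport proteins, had 1.01, 0.477, 1.70 and 1.32 CPM in mature and 0.0621, 0.168, 0.115 and 0.167 CPM in immature Xbp1flIre1fl libraries. In Xbp1fl it had 0.0768, 0.328, 0.275 and 0.972 CPM in mature and 0.681, 0.349, 0.400 and 0.269 CPM in immature libraries. Several of these values lie under the floor of 3 counts. Its interaction was 3.06 (unadjusted p = 0.00218, adjusted p = 1), with log2 fold changes of 3.04 within Xbp1flIre1fl and -0.02 within Xbp1fl. The proton-coupled amino acid carrier Slc36a1 (interaction -2.02) and Slc35f2 (2.18) were also near or under 1 CPM. At higher levels, Slc37a2 changed by 0.97 within Xbp1flIre1fl and 0.28 within Xbp1fl (interaction 0.69, adjusted p = 1), and Slc29a1 by -0.34 within Xbp1flIre1fl and -0.70 within Xbp1fl (0.36, adjusted p = 1).

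Between the lines within a stage, 0 solute carrier genes were called. In mature cells 0.142% of all genes were called and the smallest adjusted p of a solute carrier gene was 0.406, for Slc29a1 (0.34, Xbp1flIre1fl over Xbp1fl), with 16 at an unadjusted p under 0.05. The next were Slc9a3r2 (-0.38), Slc22a18 (-0.39), Slc37a2 (0.50) and Slc35d2 (-0.37). In immature cells 0.134% of all genes were called and the smallest was 0.285, for Slc4a5 (-1.96), a bicarbonate cotransporter with 0.12 to 0.31 CPM in Xbp1flIre1fl and 0.46 to 1.45 CPM in Xbp1fl libraries, with 10 at an unadjusted p under 0.05. There followed Slc7a7 (-0.31), Slc35b1 (0.23), Slc27a3 (-1.65) and Slc10a3 (-0.17). DESeq2 and limma called 0 in both stages.

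The 2 Xbp1flIre1fl mature libraries that stood apart were often the extreme ones. The counts below were made for solute carrier genes only, so whether they differ from those over all genes was not tested. Replicate 2 was the lowest mature library for 29 and replicate 4 for 18 of the 67 genes called higher, and they were the highest mature library for 18 and 22 of the 59 genes called lower. Without both, 70 solute carrier genes were higher and 64 lower (4175 and 4275 of all 12315 genes in that fit). In mature cells 2 were then called lower in Xbp1flIre1fl than in Xbp1fl, against 0 with all libraries. They were Slc12a9 (-0.48, adjusted p = 0.0431) and Slc9a9 (-0.40, adjusted p = 0.0343). Both libraries were picked after seeing the data, came from Xbp1flIre1fl only and were often the highest for genes called lower. These calls therefore cannot show a difference between the lines. Slc12a9 was at 39.01, 53.8, 34.7 and 65.7 CPM in mature Xbp1flIre1fl and 47.7, 53.7, 53.4 and 50.4 CPM in mature Xbp1fl libraries.

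Members of solute carrier families that bear other names were called about as often: of 27 tested from a list of 31, 9 were higher and 9 lower. That is 66.7% called, against 67.6% of all genes, with a median of 0.05, and with library sizes only 3 were higher. The magnesium transporter Nipal1 had 21.8, 32.6 and 56.1 CPM in mature libraries and 0.592, 0.816 and 1.54 CPM in immature libraries, and its log2 fold change of 5.24 ± 0.23 (adjusted p = 3.06e-11) was the same as that of Slc4a8 within their SEs. Spns2, which exports sphingosine-1-phosphate, averaged 5.97 ± 1.90 CPM in mature and 1.15 ± 0.640 CPM in immature cells (2.36 ± 0.28, adjusted p = 1.09e-06). The mitochondrial serine carrier Sfxn1 fell to 45.1 ± 6.88 CPM in mature cells, against 75.6 ± 3.68 CPM in immature cells (-0.75 ± 0.08, adjusted p = 2.18e-07). The phosphate exporter Xpr1 (-0.52, adjusted p = 0.00262) and the organic anion carrier Slco3a1 (-0.56, adjusted p = 0.000253) were also lower. Of 12 tested partners and zinc-buffering genes 6 were higher (50%) and 2 lower (16.7%), against 33.4% and 34.2% of all genes. Among the lower ones was Emb, an ancillary chain of lactate carriers, with 15.02 ± 2.55 CPM in mature cells and 22.98 ± 3.04 CPM in immature cells (-0.62 ± 0.09, adjusted p = 5.95e-06).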

How the data were processed

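The files hold RNA-seq of 16 libraries: a table of counts per gene and a table of log2 values. Per the submitters' processing notes, reads were handled with FastQC 0.11.4, Trimmomatic 0.35, TopHat2 2.1.0 (mm10), SAMtools 0.1.19 and limma 3.42.2. The counting tool, its annotation and its strand setting are not given in the sources used here. The deposited counts are whole numbers without normalization, from the authors, and were the basis of every level and test. The deposited log2 values followed log2 CPM of those counts up to a constant per library (residual SD at most 0.0259 over genes with a mean count of 50 or more), and the authors' table defined the members and served limma as an alternative.

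edgeR 4.0.16 (R 4.3.3) was run with its default filter on low counts, TMM scaling and a robust quasi-likelihood fit of 4 group means with 12 residual degrees of freedom. The 6 contrasts were Benjamini-Hochberg adjusted over all 11978 genes tested. The SE is the log2 fold change divided by the root of F. The script was tested on simulated data: in the contrast of stages, 96 of 97 genes changed by 1 and 80 of 97 changed by 0.5 on the log2 scale were called, with 17 false calls, among 11801 genes. The simulation gave all genes the same dispersion and changed few of them. It therefore tests neither the spread between these libraries nor their scaling when most genes change. Lengths and coordinates are from GENCODE (GRCm38), as union exon bases, and promoters from RefSeq (GRCm38.p6).

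Members and lists were chosen with earlier results of these data known. Named were the 10 largest rises and falls among called members that reached a stage mean of 5 CPM; the 2 smallest adjusted p per substrate class; the 6 highest levels per length; the 5 smallest adjusted p in the interaction and each contrast of lines; a set of 16 listed genes; and, after their values were seen, further members and listed genes. Replicates within a group differed beyond counting noise (chi-square per degree of freedom 5.33 to 59.3 over 24 pairs). Same-numbered mature and immature libraries of a line deviated together (r = 0.29 to 0.604 in 8 pairs, over 7881 genes), so the numbers were taken to pair them, and the block was an alternative. The others were upper quartile scaling, library sizes only, filters, DESeq2 1.42.0, limma 3.58.1 and leaving out libraries. Some members counted in the totals are not reported by name here.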

Additional observations from a re-analysis of the deposited data

Results flagged for a closer look

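In 121 named genes, the highest or lowest library of each group of 4 was compared with the others by its gap over the range (Dixon's criterion). Of 484 such groups 36 stood out, and chance gives about 1 in 20. All values are TMM-scaled CPM. 

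In Xbp1flIre1fl mature cells, Slc4a1 was at 3.302 in replicate 1, against 0.4769 to 0.6944 in the others, and Slc40a1 was at 29.57 in replicate 2, against 116.8 to 126.1 in the others. Slc17a5 was at 10.65 in replicate 3, against 5.723 to 6.429 in the others, and Slc22a4 was at 1.774 in replicate 3, against 0.6132 to 0.8086 in the others. Slc6a13 was at 1.08 in replicate 3, against 2.358 to 2.589 in the others, and Slc29a2 was at 1.261 in replicate 4, against 2.237 to 2.426 in the others. Slc3a2 was at 325.5 in replicate 4, against 523.4 to 527.4 in the others.

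In Xbp1flIre1fl immature cells, Mt1 was at 21.48 in replicate 1, against 16.12 to 16.81 in the others, and Slc25a10 was at 49.23 in replicate 1, against 53.16 to 53.64 in the others. Slc36a1 was at 1.614 in replicate 1, against 0.8368 to 0.9528 in the others, and Slc17a9 was at 5.885 in replicate 2, against 3.682 to 3.849 in the others. Slc25a39 was at 117.8 in replicate 3, against 122.9 to 123.9 in the others, and Slc25a5 was at 618.9 in replicate 3, against 608.6 to 609.8 in the others. Slc7a7 was at 17.78 in replicate 3, against 19.34 to 19.49 in the others, and Sfxn1 was at 76.1 in replicate 4, against 75.59 to 75.67 in the others. Slc1a3 was at 0.4463 in replicate 4, against 0.1681 to 0.1862 in the others, and Slc1a5 was at 101.3 in replicate 4, against 141.5 to 149.2 in the others. Slco3a1 was at 174.2 in replicate 4, against 212.4 to 216.5 in the others, and Spns2 was at 2.455 in replicate 4, against 0.5044 to 0.6328 in the others.

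In Xbp1fl mature cells, Slc16a1 was at 29.65 in replicate 1, against 16.97 to 18.53 in the others, and Slc1a5 was at 111.1 in replicate 1, against 92.32 to 94.52 in the others. Slc30a1 was at 30.88 in replicate 1, against 19.78 to 21.45 in the others, and Slc38a1 was at 106.5 in replicate 1, against 86.97 to 89.54 in the others. Slc39a6 was at 38.48 in replicate 1, against 34.91 to 35.24 in the others, and Slc7a1 was at 31.26 in replicate 1, against 22.49 to 23.58 in the others. Sfxn1 was at 50.5 in replicate 2, against 42.2 to 43.41 in the others, and Slc16a13 was at 4.74 in replicate 3, against 5.915 to 5.969 in the others. Slc4a7 was at 54.76 in replicate 4, against 58.76 to 59.08 in the others.

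In Xbp1fl immature cells, Slc25a28 was at 12.82 in replicate 1, against 15.48 to 15.72 in the others, and Slc31a1 was at 56.15 in replicate 1, against 48.83 to 49.61 in the others. Slc39a6 was at 50.48 in replicate 1, against 41.49 to 42.33 in the others, and Slc6a9 was at 1.248 in replicate 1, against 2.399 to 2.583 in the others. Slc39a14 was at 10.22 in replicate 3, against 8.675 to 8.905 in the others, and Slc4a8 was at 5.711 in replicate 3, against 3.573 to 3.668 in the others. Slc35b4 was at 44.12 in replicate 4, against 38.2 to 39.06 in the others, and Slc39a11 was at 55.48 in replicate 4, against 60.31 to 60.79 in the others.

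Xbp1fl mature replicate 1 was the highest of its group for each of its 6 genes above (Slc16a1, Slc1a5, Slc30a1, Slc38a1, Slc39a6 and Slc7a1).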

How the results depend on the processing

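In the mean of both lines, 60 to 71 solute carrier genes were higher and 56 to 62 lower over the 16 fits that each left out 1 library. Within Xbp1flIre1fl these were 47 to 59 and 42 to 55, and within Xbp1fl 43 to 53 and 48 to 52. In the interaction and in both contrasts of the lines 0 were called in each of these fits. By class, vitamin carriers had 0 to 1 higher and 1 to 2 lower. The replicate block gave 70 higher and 62 lower, against 67 and 59, and changed no call of a named gene other than those of Slc2a1, Slc23a2, Slc30a1 and Slc41a3. The contrasts of the lines could not be estimated with the block. DESeq2 gave 71 higher and 58 lower, limma 69 and 59, no filter 59 and 60, and a filter of 1 CPM in at least 4 libraries 63 and 58.

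With library sizes only, 94 were lower in the mean, 87 lower within Xbp1fl and 38 higher within Xbp1flIre1fl. The classes then had 5 metal, 6 organic ion and 3 sugar carriers higher, and 2 lipid, 9 inorganic ion, 23 mitochondrial, 13 nucleotide sugar, 5 sugar and 5 vitamin carriers and 1 gene named after a carrier lower. The families with other names had 3 higher, and the partners 5 lower. Upper quartile scaling gave 5 metal carriers higher, and 2 lipid, 4 sugar and 4 vitamin carriers lower. The 1 CPM filter left 1 lipid and 1 vitamin carrier higher. Vitamin carriers were higher in 2 genes with DESeq2 and in 1 gene without robust estimation, with limma, with the block and without Xbp1flIre1fl mature replicates 2 and 4. Over 2-fold only, 21 were higher and 3 lower in the mean, 23 and 4 within Xbp1flIre1fl and 20 and 5 within Xbp1fl. Without Xbp1flIre1fl mature replicates 2 and 4, an alternative chosen after seeing the data, 2 were lower in mature Xbp1flIre1fl cells. As said above, this cannot show a difference between the lines. Per kb of the longest transcript, levels were 434.9 for Slc25a5, 194 for Slc8b1 and 98.2 for Slc25a11.

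Of 3019 gene values under alternatives, 2896 kept direction and call, 49 lost and 35 gained a call, and 39 changed sign. Under upper quartile scaling Slc25a11 lay at -0.12, Slc35f2 at -0.049, Slc39a14 at -0.11, Slc46a3 at -0.048 and Slc7a7 at -0.067. With library sizes only Slc10a3 lay at -0.075, Slc23a2 at -0.080, Slc25a11 at -0.22, Slc30a1 at -0.0014, Slc35f2 at -0.15, Slc39a14 at -0.21, Slc41a3 at -0.047, Slc46a3 at -0.15 and Slc7a7 at -0.17. Without the filter Slc25a11 lay at -0.017 and Slc39a14 at -0.0078, with the block Slc25a11 at -4.9e-05, and without Xbp1flIre1fl mature replicates 2 and 4 Slc25a11 at -0.016. Leaving out 1 library gave -0.0214 to 0.0143 for Slc25a11, -0.0637 to 0.0194 for Slc25a37, -0.102 to 0.458 for Slc35f2 and -0.0526 to 0.0631 for Slc39a14. The causes of these changes were not tested. Depth limits the genes under 1 CPM, for which 3 counts are 0.176 to 0.215 CPM.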

Other observations

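Of the 373 Slc symbols in the count table, 168 are not in the log2 table. Of these, 57 had no count in any library, and the highest mean of a stage among the rest was 0.894 CPM. Only Slc2a4rg-ps, Slc9a4 and Slc9a5 of the 168 passed the filter on low counts.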
